A study of Mus musculus with 9 samples.

Results

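The hearts of untreated MIRI mice were set beside those of sham mice in RNA-seq counts of reads per gene, to see which gene programmes differed after myocardial ischemia/reperfusion injury (MIRI). The libraries were taken by their deposited labels, 3 MIRI and 3 sham, which is 6 of the 9 libraries in the series. The mice were wild-type male C57BL/6J animals, 8 to 10 weeks old. In MIRI mice the left anterior descending coronary artery was tied for 30 min and released for 24 hrs, with saline given by tail vein, and sham mice had the chest opened without the tie. The other 3 libraries came from MIRI mice given Guanxinning injection (GXNI) at 9 mL/kg. One of them, GXNI 3, is used here because a second grouping, MIRI 1, MIRI 3 and GXNI 3 against the same sham libraries, was the only one of the possible choices of ischemic libraries whose fold changes nearly coincided with those tabulated with the study, which the labelled grouping did not. Whether the labels of MIRI 2 and GXNI 3 were exchanged cannot be told from the files, so MIRI 2 is an untreated MIRI heart by its label only. That set is called the other grouping, and since it shares the sham libraries and MIRI 1 and MIRI 3 with the labelled one, the results of both are given side by side and not as separate evidence.

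When a coronary artery is reopened, cardiomyocytes that were cut off from oxygen die within hours, neutrophils and then monocytes enter the tissue, and surviving cardiomyocytes are stretched and switch part of their gene expression back to a fetal pattern. The adult heart burns mainly fatty acids in its mitochondria, and this capacity depends on a set of nuclear genes under PGC-1 and ERR regulators. Fibroblasts of the injured wall later lay down a provisional matrix of glycoproteins before collagen scar forms. Tissue RNA from such a heart mixes all of these cells.

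The libraries held 17891678 to 22811295 counted reads. CPM is a gene's counts scaled to a common library size, and 3 counts corresponded to 0.129 to 0.178 CPM. This level serves as a mark for values near the floor and was not used as a filter. Transcripts of mitochondrial DNA took 27.4% to 29.8% of the reads in sham and 23.0% to 26.9% in MIRI libraries. The labels give the cell type as cardiomyocytes, but markers of other cells were present in all 6 libraries: endothelial markers summed to 1302 to 1756 CPM, fibroblast markers to 1128 to 2218 CPM and resident macrophage markers to 213 to 306 CPM. The RNA was therefore treated as RNA of heart tissue. Markers of lung epithelium, a tissue next to the heart, summed to at most 0.322 CPM.

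One library, MIRI 2, stood apart from the other MIRI libraries. Its Spearman correlation over genes was 0.975 to 0.979 with the sham libraries, 0.939 with MIRI 1 and 0.927 with MIRI 3. With GXNI 1, GXNI 2 and GXNI 3 it was 0.982, 0.972 and 0.910, so that its highest value was with GXNI 1. GXNI 3 correlated at 0.986 with MIRI 1 and at 0.987 with MIRI 3. The difference of MIRI 2 from MIRI 1 and MIRI 3 was not a uniform weakening. In MIRI 2 some programmes lay on the MIRI side, many lay within or on the far side of the sham range, and interferon genes lay far below sham, as the plot of gene programmes by library shows. For this reason counts over gene lists are given by the deposited labels and beside them without MIRI 2 or for the other grouping.

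**Figure D1:**
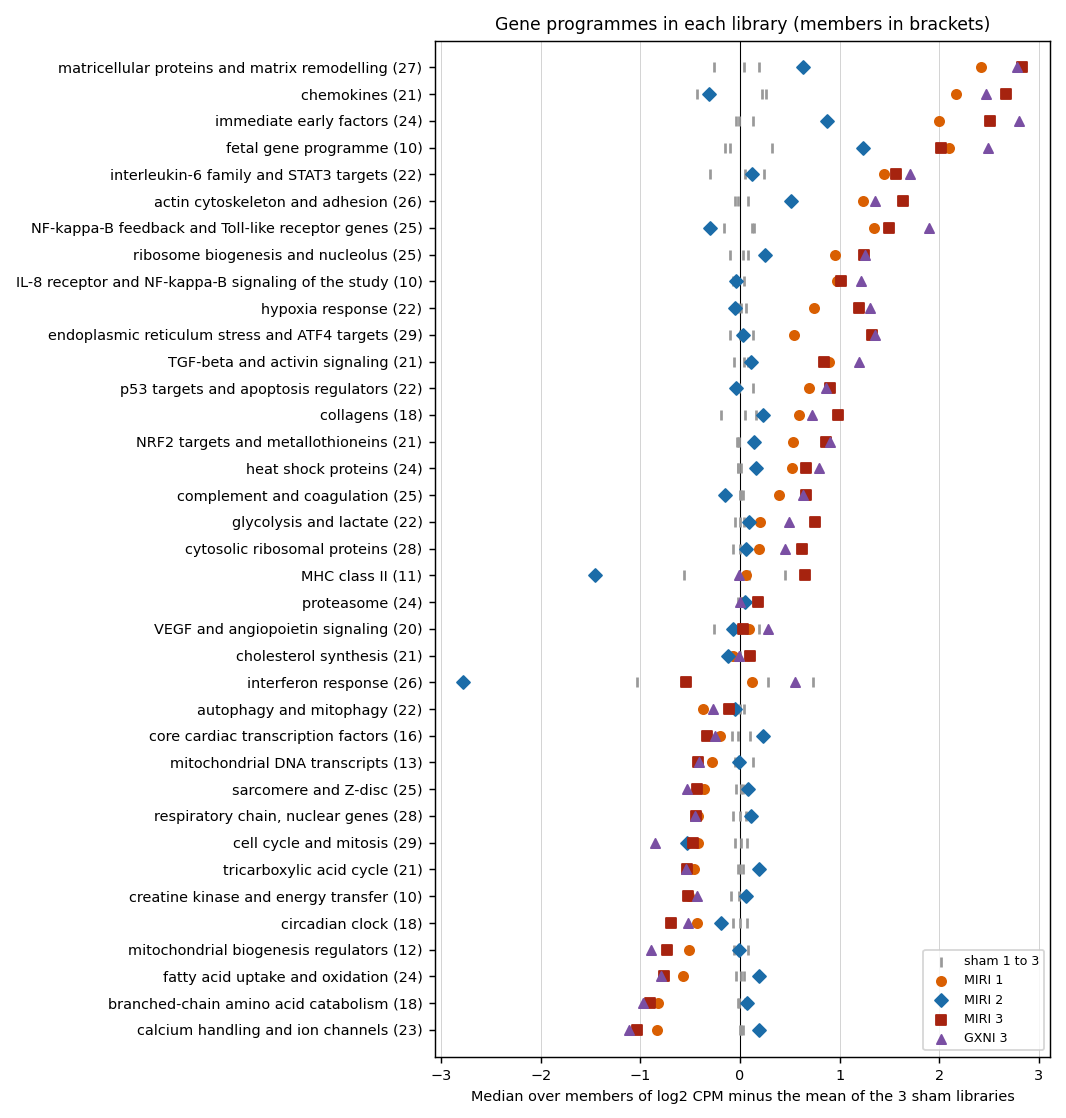
Each row is a gene programme with the number of its genes in brackets, and the horizontal axis is the median over its tested members of log2 CPM minus the mean of the 3 sham libraries. Grey ticks are sham libraries and coloured symbols are MIRI 1, MIRI 2, MIRI 3 and GXNI 3. MIRI 2 lies near zero for chemokines (-0.31) where MIRI 1 and MIRI 3 lie at 2.17 and 2.67, lies partly up for the fetal programme (1.23), and lies at -2.78 for interferon genes.

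A gene was counted as higher or lower when its fold was at least 1.5 and its unadjusted p at most 0.01 in edgeR's quasi-likelihood test, the thresholds of the study. By the deposited labels 900 of 14644 genes tested were higher in MIRI than in sham, which is 6.15%, and 413 were lower, which is 2.82%. After Benjamini-Hochberg adjustment in edgeR only Fhl1 and Nr4a1 passed an adjusted p of 0.05, which is 0.0137% of the genes tested, while 4149 genes had an unadjusted p under 0.05 (28.3%) and DESeq2 passed 2025 genes at the adjusted threshold. Without MIRI 2 the counts were 2571 higher (16.9% of 15207 tested) and 2021 lower (13.3%), and in the other grouping 2848 higher (19.2% of 14853 tested) and 2462 lower (16.6%). After adjustment in edgeR 6554 genes (43.1%) passed without MIRI 2 and 7924 (53.3%) in the other grouping, and an unadjusted p under 0.05 was reached by 52.3% and 59.4% of genes. All 3 libraries of the other grouping lay above all sham libraries for 31.4% of genes and below them for 31.1%. The median change over all genes tested lay within 0.01 of 0 on the log2 scale in each setting. Counts of called genes in the lists below are to be read beside the shares over all genes tested given here. The verbs rose and fell are used for genes past the thresholds of fold and unadjusted p by the deposited labels unless another grouping is named. Fold changes are log2 values ± SE from edgeR, and since each group is bulk tissue, fewer cells of a type and less RNA per cell cannot be told apart in any of them.

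Fhl1 encodes a LIM-domain protein of striated muscle that takes part in stretch signaling. Its level was 148, 130.1 and 162 CPM in the sham libraries and 1327, 876 and 1462 CPM in MIRI 1, 2 and 3. All MIRI libraries, MIRI 2 included, lay far above all sham libraries, and Fhl1 rose by 3.06 ± 0.24 on the log2 scale (edgeR quasi-likelihood test, adjusted p = 0.0363). Nr4a1, an orphan nuclear receptor induced within minutes of stimulation, was at 8.91, 14.6 and 10.1 CPM in sham and at 68.7, 67.7 and 62.6 CPM in MIRI. Here MIRI 2 was level with the other MIRI libraries, and the rise was 2.57 ± 0.21 (edgeR quasi-likelihood test, adjusted p = 0.0363).

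The 5 largest rises with groups that did not overlap were in Cxcl3, Sh2d5, Thbs1, Cxcl2 and Sprr1a. Cxcl3, a neutrophil-attracting chemokine gene at chr5:90786103-90789600 of GRCm38, had 2, 0 and 4 reads in the sham libraries and 1692, 16 and 3195 reads in MIRI 1, 2 and 3. Sprr1a, a small proline-rich protein that cardiomyocytes make under strain, had 9, 6 and 12 reads in sham against 417, 102 and 1574. In both genes MIRI 2 was above every sham library and far below the other MIRI libraries, and the fitted rises were 9.36 ± 1.97 and 6.04 ± 1.01. The 5 largest falls were in BC023105, F830016B08Rik, Gm31600, Kcnc1 and Igtp. Kcnc1, a voltage-gated potassium channel, had 27, 22 and 22 reads in sham and 2, 1 and 2 in MIRI, with no library between, and fell by 3.83 on the log2 scale (SE 0.41). BC023105, annotated as a processed pseudogene, and F830016B08Rik varied widely within sham, from 700 to 6360 reads and from 1482 to 13810 reads, and so did Igtp.

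The fetal gene programme rose, with natriuretic peptides in front. Of 10 genes listed, 9 were tested and 6 rose by the deposited labels and none fell, with a median change of 1.86. Without MIRI 2 also 6 rose (median 2.22), and in the other grouping 7 rose (median 2.31). Nppb encodes the precursor of brain natriuretic peptide, a hormone of the stretched ventricle. It stood at 10.6, 68.9 and 87.3 CPM in sham and at 1466, 608 and 1896 CPM in MIRI 1, 2 and 3. The lowest MIRI value, that of MIRI 2, was still well above the highest sham value, and the rise was 4.58 ± 0.84. Nppa, the atrial natriuretic peptide, rose by 2.53 ± 0.56, and the stretch-responsive Ankrd1, Xirp1 and Acta1 rose by 1.86 ± 0.46, 2.07 ± 0.35 and 1.02 ± 0.25. Myh7, the slow myosin heavy chain usually named with this programme, stood at 390.5, 197 and 418 CPM in sham and at 376, 368 and 301 CPM in MIRI. Its groups overlapped and its change of 0.06 ± 0.29 was well within the spread.

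**Figure D2:**
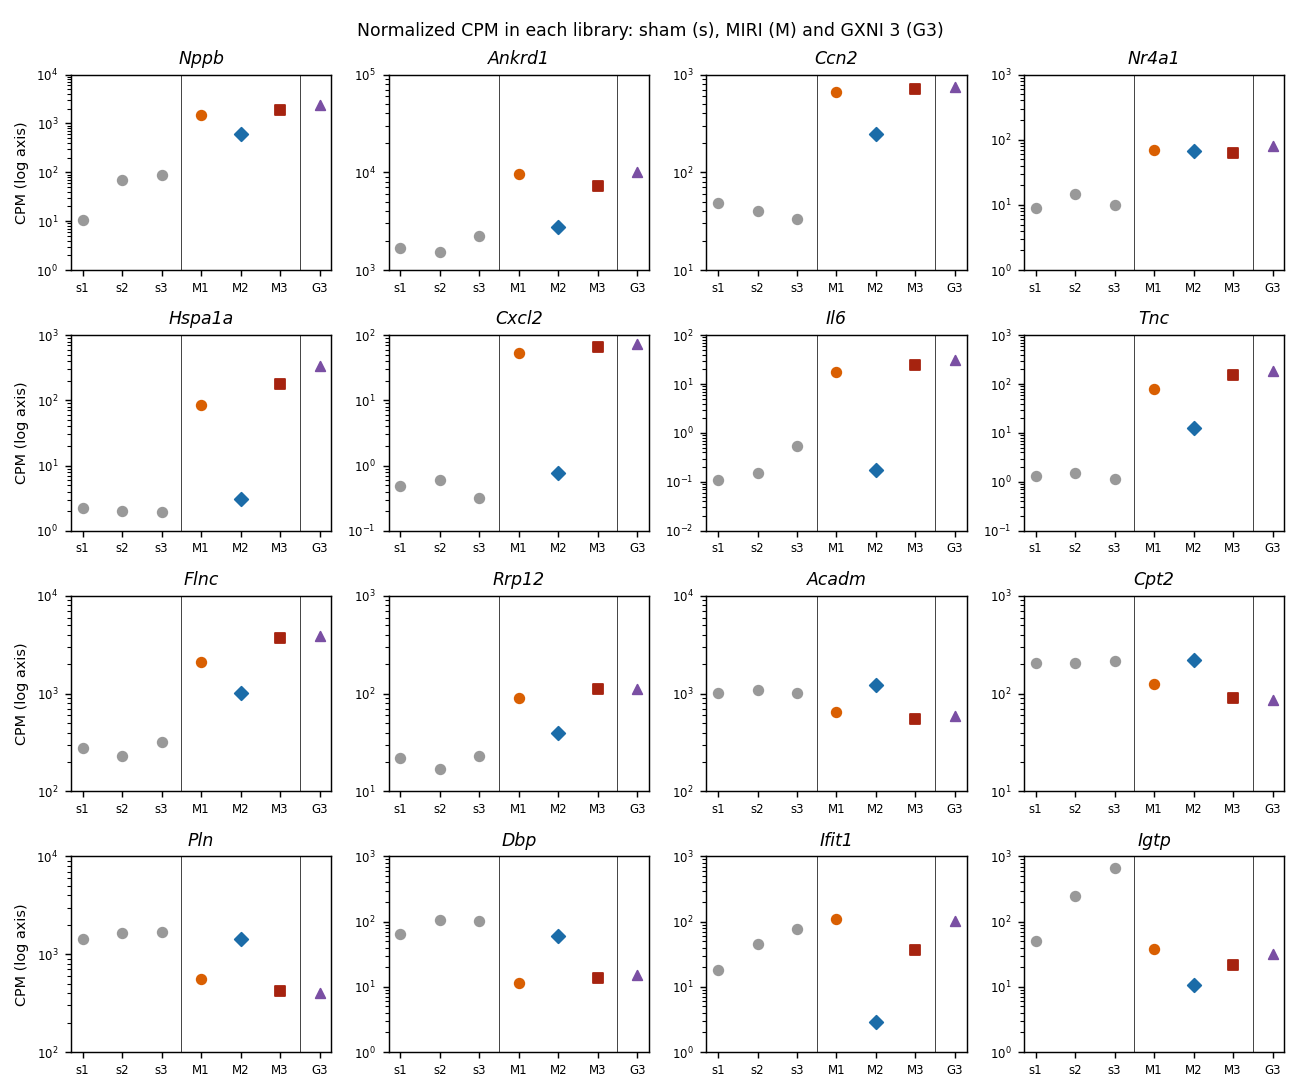
Each panel shows 1 gene, with CPM on a log axis in the 3 sham (s), 3 MIRI (M) and GXNI 3 (G3) libraries. Nr4a1 is level in all MIRI libraries, Nppb, Ccn2, Tnc and Flnc are raised in MIRI 2 to a smaller extent, Cxcl2, Il6, Acadm, Cpt2 and Pln in MIRI 2 lie near the sham values, and Ifit1 and Igtp lie below every sham library only in MIRI 2 and in all MIRI libraries, respectively.

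Contractile genes moved in both directions. Of 25 genes of the sarcomere and Z-disc 3 rose and 4 fell by the deposited labels, with 4 and 10 without MIRI 2 and 5 and 11 in the other grouping. The risers were Xirp2, Synpo2l and Csrp3. Xirp2 was at 237, 243 and 295 CPM in sham and at 1823, 1024 and 3158 CPM in MIRI, Synpo2l rose by 2.83 ± 0.29 and Csrp3 by 1.26 ± 0.23. In each of the 3 genes every MIRI library was above every sham library. The fallers were Tcap, which caps titin at the Z-disc, Mybpc3, the cardiac myosin-binding protein C, Myom2 of the M-band and the myosin Myh7b. Tcap was at 2233, 2356 and 2136 CPM in sham and at 516, 1363 and 438 CPM in MIRI, with MIRI 2 between the other MIRI libraries and sham, and fell by 1.54 on the log2 scale (SE 0.43). Myh6, the main adult myosin heavy chain, was at 16456, 14448 and 15450.0 CPM in sham and at 7450.0, 14130.0 and 6532 CPM in MIRI. MIRI 2 was just under the lowest sham library, and the change of -0.72 ± 0.33 did not pass. It fell by 1.14 in the other grouping (SE 0.09, edgeR adjusted p = 5.5e-05). Titin itself, Ttn, differed from sham by -0.21 ± 0.26 by the deposited labels and by -0.52 ± 0.11 in the other grouping, which did not reach the fold threshold.

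More genes of calcium handling and cardiac ion channels passed without MIRI 2, as did more of all genes tested. Of 22 tested of 23, 2 fell, Kcnip2 among them, and 1 rose by the deposited labels, whereas 14 fell and 1 rose without MIRI 2 and 14 fell and 2 rose in the other grouping. In these 3 settings 2.82%, 13.3% and 16.6% of all genes tested fell and 6.15%, 16.9% and 19.2% rose. The median change of the list was -0.41, -0.99 and -1.01. Kcnip2, the accessory subunit of the transient outward potassium current, stood at 168, 147 and 163 CPM in sham and at 30.6, 69.2 and 26.9 CPM in MIRI. All MIRI libraries were below all sham libraries and the fall was 1.92 on the log2 scale (SE 0.36). Pln encodes phospholamban, the inhibitor of the sarcoplasmic calcium pump, and was at 1417, 1668 and 1677 CPM in sham and at 557, 1421 and 418 CPM in MIRI. MIRI 2 lay inside the sham range, so that the change was -0.99 ± 0.44 by the deposited labels and -1.79 ± 0.14 in the other grouping, where it fell (edgeR adjusted p = 4.9e-05). The pump Atp2a2, the ryanodine receptor Ryr2 and the L-type channel Cacna1c likewise fell only in the settings without MIRI 2, by 1.23, 0.77 and 1.37 when it was left out.

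Genes of oxidative metabolism were lower in MIRI 1 and MIRI 3 and not in MIRI 2. By the deposited labels 0 of 24 genes of fatty acid uptake and oxidation, 0 of 21 of the tricarboxylic acid cycle, 0 of 28 nuclear genes of the respiratory chain and 0 of 18 of branched-chain amino acid catabolism passed in either direction. Without MIRI 2 there were 16, 6, 3 and 12 that fell, beside 13.3% of all genes tested. In the other grouping there were 18, 6, 2 and 14, beside 16.6% of all genes tested, and none rose in either. Respiratory chain genes were called lower less often than all genes in these settings, since most of their changes were too small for the fold threshold. Their median changes were -0.42 and -0.43. The falls were small but uniform, with all 28 changes between -0.72 and -0.29 without MIRI 2 and between -0.76 and -0.28 in the other grouping. At an adjusted p of 0.05 in edgeR 26 of the 28 passed without MIRI 2, beside 43.1% of all genes tested in either direction. In the other grouping 28 of 28 passed, beside 53.3%. In MIRI 2 itself 18 of the 24 fatty acid genes, 19 of the 21 cycle genes and 20 of the 28 respiratory chain genes lay above all sham libraries, beside 34.2% of all genes tested. The 3 MIRI libraries thus did not share a direction for these pathways. Cpt2, which completes the import of long-chain fatty acids into the mitochondrion, was at 206, 206 and 214 CPM in sham and at 126, 219 and 90.4 CPM in MIRI. MIRI 2 was the highest of the 6. The change was -0.52 ± 0.30 by the deposited labels and -1.05 ± 0.15 in the other grouping (edgeR adjusted p = 0.000544). Acadm, the medium-chain acyl-CoA dehydrogenase, showed the same order with 649, 1214 and 547 CPM against 1008, 1092 and 1019. Slc2a4, the insulin-dependent glucose transporter, was at 356, 374 and 391 CPM in sham and at 102, 349 and 112 CPM in MIRI.

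Regulators upstream of these pathways were split in the same way. Of 12 genes listed for mitochondrial biogenesis 0 passed by the deposited labels and 6 fell in each of the other settings, among them Ppargc1a, which encodes PGC-1 alpha, Esrra, Esrrg and Perm1. Ppargc1a was at 158, 103 and 159 CPM in sham and at 54.8, 128 and 32.6 CPM in MIRI, with MIRI 2 inside the sham range. Ppm1k, the phosphatase that switches on branched-chain keto acid oxidation, differed from sham by -0.82 ± 0.52 by the deposited labels and fell by 1.90 in the other grouping (SE 0.14). The 13 protein-coding transcripts of mitochondrial DNA did not pass by the deposited labels or without MIRI 2, and mt-Nd6 alone fell in the other grouping. Their summed level was 267190.0 to 302160.0 CPM in sham and 232540.0, 276700.0 and 212280.0 CPM in MIRI. Of 9 genes of creatine kinase and energy transfer tested none passed by the deposited labels, and Ampd3 rose and Ckm and Ak1 fell without MIRI 2.

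Glycolysis genes split by isoform. Of 22 genes 4 rose and 0 fell by the deposited labels, 8 rose and 5 fell without MIRI 2, and 9 rose and 5 fell in the other grouping. The lactate exporter Slc16a3 was at 4.56, 3.12 and 5.97 CPM in sham and at 90.9, 6.59 and 182 CPM in MIRI. MIRI 2 only just exceeded the highest sham library, and the rise was 4.37 ± 1.06. The glucose transporter Slc2a1, the platelet-type phosphofructokinase Pfkp and Pgam1 also rose, by 2.46 ± 0.68, 1.87 ± 0.40 and 1.34 ± 0.29. Their muscle counterparts Slc2a4, Pfkm and Pgam2 fell without MIRI 2, by 1.80, 1.21 and 0.74, as did Eno3 and Ldhb. Gapdh was left unread, because its count varied from 5.1 to 195 CPM within sham and it has many processed copies in the mouse genome.

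**Figure D3:**
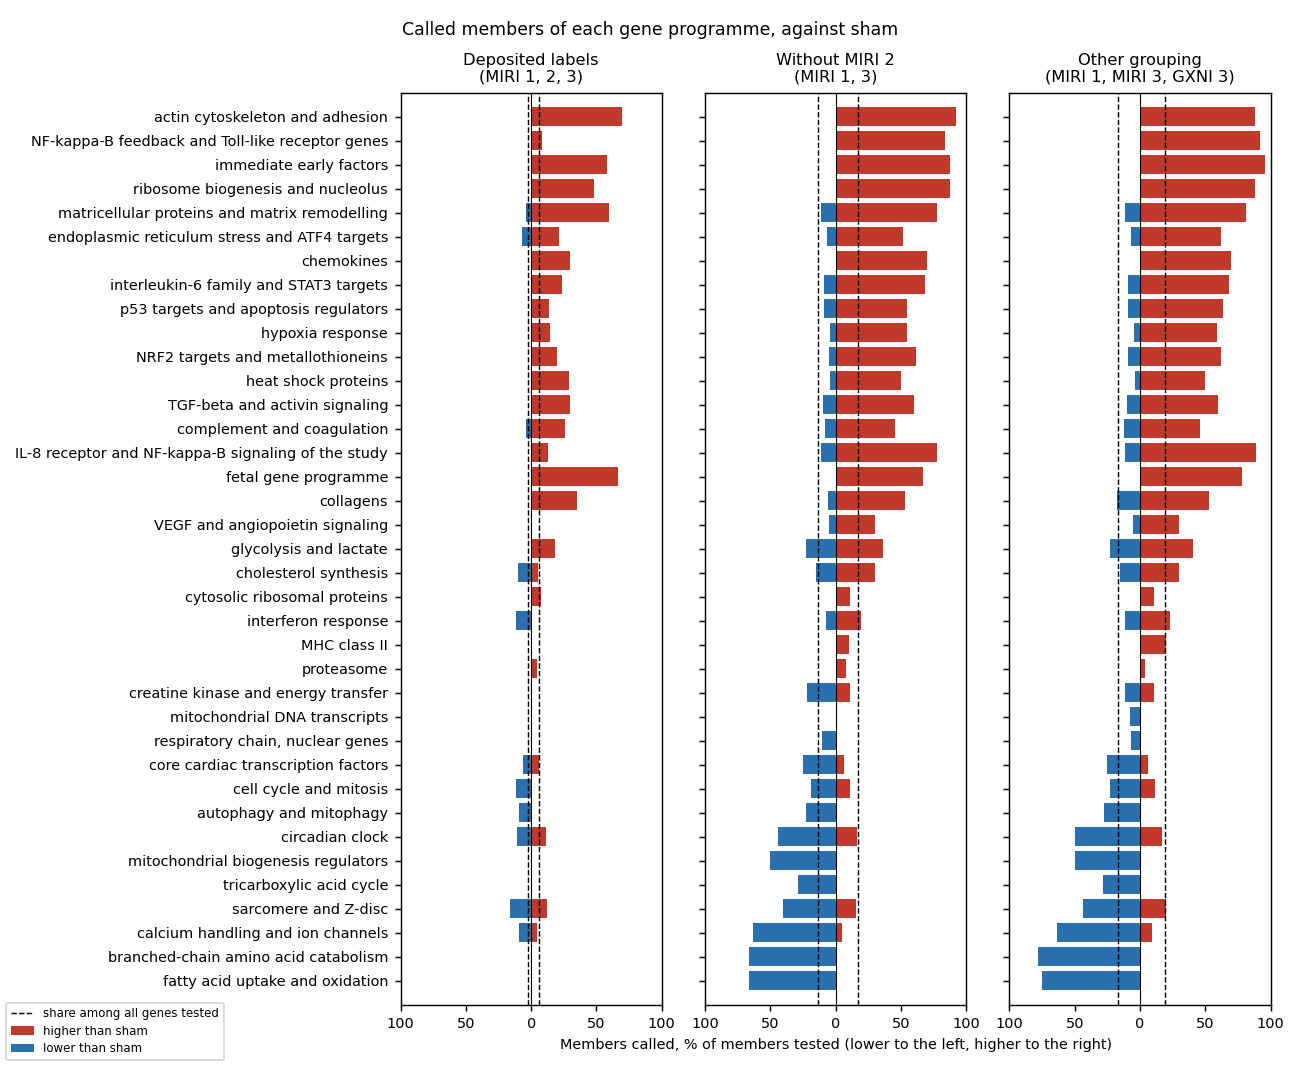
Bars give the percentage of tested members of each programme that were higher (right) or lower (left) than sham at a fold of 1.5 and an unadjusted p of 0.01, by the deposited labels, without MIRI 2, and in the other grouping. Dashed lines mark the same percentages over all genes tested, and fatty acid and branched-chain amino acid genes at the bottom pass only in the panels without MIRI 2, while the actin and immediate early programmes pass in all panels.

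Immediate early factors rose broadly. Of 24 genes 14 rose and none fell by the deposited labels, 21 rose without MIRI 2 and 23 in the other grouping, with medians of 1.89, 2.27 and 2.42. Over all genes tested 6.15%, 16.9% and 19.2% rose in the same 3 settings. MIRI 2 took part, with a median of 0.87 and 17 of 24 genes above all sham libraries, beside 34.2% of all genes tested. Atf3, a stress-induced transcription factor, was at 3.11, 2.72 and 2.88 CPM in sham and at 53.6, 13.4 and 93.1 CPM in MIRI. The groups were well apart, with MIRI 2 lowest among the MIRI libraries, and the rise was 4.21 ± 0.68. Fos and Fosb, partners of JUN in the AP-1 factor, rose by 3.13 ± 0.72 and 4.13 ± 0.93, Egr1 by 3.04 ± 0.71 and Jund by 1.30 ± 0.16. Klf4 stood at 42.3, 42.5 and 40.9 CPM in sham and at 48.3, 64 and 40.8 CPM in MIRI and did not pass in any setting.

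Part of the heat shock proteins rose. Of 24 genes 7 rose and 0 fell by the deposited labels, and 12 rose and 1 fell in both other settings. Hspa1a encodes the inducible chaperone HSP70, and its promoter is shown because it carries a heat shock element, the site of the factor HSF1. The window runs from 250 bases before to 50 bases after the start of the gene, from RefSeq on build GRCm38.p6, at chr17:34972107-34972406 on the reverse strand, and capitals mark the letters GAANNTTC.
Hspa1a: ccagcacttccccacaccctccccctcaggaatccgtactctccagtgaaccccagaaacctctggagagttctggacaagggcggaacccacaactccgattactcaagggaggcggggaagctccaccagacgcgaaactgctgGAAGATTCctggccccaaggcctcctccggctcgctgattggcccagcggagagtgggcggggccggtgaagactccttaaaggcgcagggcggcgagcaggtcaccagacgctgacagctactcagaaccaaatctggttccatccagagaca

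These letters, searched on both strands, occurred in the same window of 12 of the 20 listed heat shock genes that had a promoter in the table, 60%, and in 9.04% of 27025 genes. A match describes the sequence and is no proof of a site. Hspa1a was at 2.2, 1.98 and 1.97 CPM in sham and at 84.1, 3.03 and 179.8 CPM in MIRI 1, 2 and 3. MIRI 2 was just above sham while the other MIRI libraries were far above it, a fitted rise of 5.45 ± 1.28. Its neighbour Hspa1b is nearly identical in sequence and rose by 5.33 ± 1.36, and reads of the pair may have been shared. Hspb1, a small heat shock protein of muscle, was at 201, 175 and 223 CPM in sham and at 1631, 803 and 3074 CPM in MIRI, so that here MIRI 2 was also clearly raised, a rise of 3.21 ± 0.48. The cytosolic Hsp90aa1 and the small heat shock protein Cryab rose by 1.92 ± 0.38 and 1.32 ± 0.32, whereas Hsp90ab1 and the mitochondrial Hspd1 and Hspe1 differed from sham by 0.03 ± 0.18, 0.01 ± 0.17 and 0.03 ± 0.15.

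Other stress programmes rose in part. For endoplasmic reticulum stress and targets of ATF4, 6 of 28 tested rose and 2 fell by the deposited labels, 15 and 2 of 29 without MIRI 2, and 18 and 2 of 29 in the other grouping. Gdf15, a stress cytokine, was at 0.376, 1.14 and 1.39 CPM in sham and at 35, 2.73 and 57.8 CPM in MIRI, without overlap and with MIRI 2 nearest to sham, a rise of 5.04 ± 1.10. The fallers were Herpud1 and Vldlr. The chaperone Hspa5 and the factor Ddit3, the usual marks of this stress, differed from sham by 0.41 ± 0.22 and 0.08 ± 0.33, and of the pair Hspa5 rose in the other grouping only. Of 20 NRF2 targets and metallothioneins 4 rose by the deposited labels, and of 21 tested 13 rose and 1 fell without MIRI 2 and 13 rose and 2 fell in the other grouping. Hmox1, heme oxygenase, was at 27.3, 21.8 and 21.4 CPM in sham and at 125, 16 and 215 CPM in MIRI. MIRI 2 was below the sham range, and the change of 2.35 ± 0.79 passed only in the settings without it. Of 21 hypoxia genes 3 rose by the deposited labels, and of 22 tested 12 rose and 1 fell without MIRI 2 and 13 rose and 1 fell in the other grouping. Egln3, an oxygen-sensing prolyl hydroxylase, rose by 2.56 ± 0.57. Vegfa differed from sham by 0.34 ± 0.26. Of 22 p53 targets and apoptosis regulators 3 rose by the deposited labels, 12 rose and 2 fell without MIRI 2, and 14 rose and 2 fell in the other grouping, with a rise of Btg2 by 1.98 ± 0.39.

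Chemokine genes rose steeply in MIRI 1 and MIRI 3. Of 20 tested of 21, 6 rose and none fell by the deposited labels, and 14 rose and none fell in both other settings, with medians of 2.13, 2.60 and 2.68. In MIRI 2 the median was -0.31 and 7 of the genes lay below all sham libraries, beside 32.1% of all genes tested. Cxcl2 attracts neutrophils, and its promoter is shown because the list as a whole often carried a site of NF-kappa-B, the transcription factor of inflammation. The window lies at chr5:90903649-90903948 on the forward strand of GRCm38.p6, from RefSeq, and capitals mark GGAANNNCC on either strand.
Cxcl2: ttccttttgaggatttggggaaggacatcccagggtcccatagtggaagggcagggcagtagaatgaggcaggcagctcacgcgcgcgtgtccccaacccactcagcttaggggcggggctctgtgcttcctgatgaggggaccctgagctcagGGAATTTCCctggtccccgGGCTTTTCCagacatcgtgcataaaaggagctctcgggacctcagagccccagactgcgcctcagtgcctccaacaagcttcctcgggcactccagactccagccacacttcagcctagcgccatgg

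The same letters occurred in 9 of 16 chemokine promoters, 56.2%, in 15 of 20 promoters of NF-kappa-B feedback and Toll-like receptor genes, 75%, and in 20.7% of all promoters. Not every motif searched was frequent in its list. The AP-1 letters TGANTCA occurred in 0 of 19 promoters of immediate early factors and in 8.97% of all promoters. Among the motifs and lists searched, only this list had a share below that of all promoters. Cxcl2 had 9, 12 and 6 reads in sham and 1148, 13 and 1543 reads in MIRI 1, 2 and 3. MIRI 2 exceeded the highest sham library by 1 read before scaling and the other MIRI libraries were far above, for a fitted rise of 6.42 ± 1.48 and, in the other grouping, 7.08 ± 0.22 (edgeR adjusted p = 3.7e-06). Cxcl1 was at 1.23, 1.73 and 4.21 CPM in sham and at 44, 3.15 and 51.6 CPM in MIRI, and its groups overlapped through MIRI 2. The monocyte chemokines Ccl2, Ccl6 and Ccl9 rose by 3.78 ± 1.06, 2.17 ± 0.52 and 2.02 ± 0.52. Cxcl12, a chemokine made in the uninjured heart, differed from sham by -0.03 ± 0.27 and did not pass in any setting.

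Receptors and feedback genes around NF-kappa-B moved in the same libraries. Of 24 feedback and Toll-like receptor genes tested, Relb and Tlr4 rose by the deposited labels, while 21 of 25 rose without MIRI 2, 23 of 25 rose in the other grouping and none fell. Il1b, the central inflammatory interleukin, was at 1.56, 0.743 and 3.14 CPM in sham and at 32, 0.831 and 30.8 CPM in MIRI. MIRI 2 lay inside the sham range, so that the groups overlapped and the change of 3.56 ± 1.17 did not pass. Il1rn and Il1r2, the soluble antagonist and the decoy receptor of the same pathway, rose without MIRI 2 by 5.29 and 5.38. Tnf itself was low, at 0.322, 0.396 and 0.799 CPM in sham and at 1.17, 0 and 1.63 CPM in MIRI. The study's own list for the IL-8 receptor pathway, chosen on these samples, had 1 riser of 8 tested by the deposited labels, Ptgs2, 7 risers and 1 faller of 9 without MIRI 2, and 8 risers and 1 faller of 9 in the other grouping.

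Some genes of the interleukin-6 family rose. Of 21 tested of the family and STAT3 targets 5 rose and 0 fell, and 15 rose and 2 fell in both other settings. Il6 was at 0.107, 0.149 and 0.533 CPM in sham and at 17.9, 0.178 and 24.4 CPM in MIRI. The libraries MIRI 1 and MIRI 3 were far above sham and MIRI 2 was inside it, so that the rise of 5.74 ± 1.52 came with overlapping groups. Lif, its relative, was at 0.268, 0.297 and 0.213 CPM in sham and at 6.98, 0.772 and 12.6 CPM in MIRI, without overlap, and rose by 4.69 ± 1.0. The receptors Lifr and Il11ra1 fell without MIRI 2, by 1.37 and 0.99, whereas Osmr rose by 1.45. The shared receptor chain Il6st differed from sham by 0.19 ± 0.15.

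Interferon genes differed widely between libraries of 1 group. MIRI 2 lay below all 3 sham libraries in 26 of 26 genes, beside 32.1% of all genes tested. Its median was -2.78, with 0.12 in MIRI 1, -0.54 in MIRI 3 and 0.55 in GXNI 3. The sham libraries also differed among themselves, with medians of -1.04, 0.28 and 0.73. By the deposited labels none of the 26 rose and 3 fell. Without MIRI 2, 5 rose and 2 fell, beside 16.9% higher and 13.3% lower among all genes tested. In the other grouping 6 rose and 3 fell, beside 19.2% and 16.6%. In both of these settings the risers were near the share over all genes and the fallers below it. Ifit3 is an antiviral gene of type I interferon, and its promoter is shown because it carries the interferon-stimulated response element at both marked places. The window lies at chr19:34583279-34583578 on the forward strand of GRCm38.p6, from RefSeq, and capitals mark TTTCNNTTT.
Ifit3: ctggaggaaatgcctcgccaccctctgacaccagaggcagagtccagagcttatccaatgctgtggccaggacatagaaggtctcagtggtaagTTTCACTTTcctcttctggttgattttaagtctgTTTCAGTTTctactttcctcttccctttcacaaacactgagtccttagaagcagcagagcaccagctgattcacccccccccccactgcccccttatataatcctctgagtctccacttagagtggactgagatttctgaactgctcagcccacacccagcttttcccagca

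These letters, on both strands, occurred in 16 of 22 interferon gene promoters, 72.7%, and in 12.1% of all promoters. Ifit3 was at 28.2, 50.6 and 71.6 CPM in sham and at 133, 3.68 and 42.2 CPM in MIRI. Ifit1 was at 17.9, 45.1 and 78.1 CPM in sham and at 110.0, 2.91 and 37.2 CPM in MIRI. In both genes MIRI 1 was the highest of the 6 libraries and MIRI 2 the lowest, and the changes of 0.26 ± 0.99 and 0.10 ± 1.05 have errors larger than themselves. The genes that fell were the interferon-inducible GTPases Igtp, Irgm2 and Iigp1. Igtp was at 51.3, 249.7 and 666 CPM in sham and at 38.4, 10.7 and 21.4 CPM in MIRI. The groups did not overlap, but the sham libraries spanned a wider range than the gap to the MIRI libraries, for a fall of 3.77 on the log2 scale (SE 0.94). Irf7, Stat2 and Gbp2 differed from sham by -0.89 ± 0.95, -0.77 ± 0.60 and -1.18 ± 0.75. Isg15, Mx1, Oas1a, Rsad2 and Ifitm3 rose without MIRI 2, by 1.67, 1.96, 1.14, 1.40 and 0.89.

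Genes of MHC class II, which present antigen on dendritic cells, macrophages and B cells, went the same way in MIRI 2. It lay below all sham libraries in 9 of 10 genes tested, beside 32.1% of all genes tested, with a median of -1.45. None of the 10 passed by the deposited labels. Without MIRI 2, 1 rose, and in the other grouping 2 rose. These were no clear excess over the 16.9% and 19.2% of all genes tested that rose. H2-Ab1 was at 34.5, 68.2 and 53.9 CPM in sham and at 28.7, 14.8 and 64 CPM in MIRI, overlapping through MIRI 3.

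**Figure D4:**
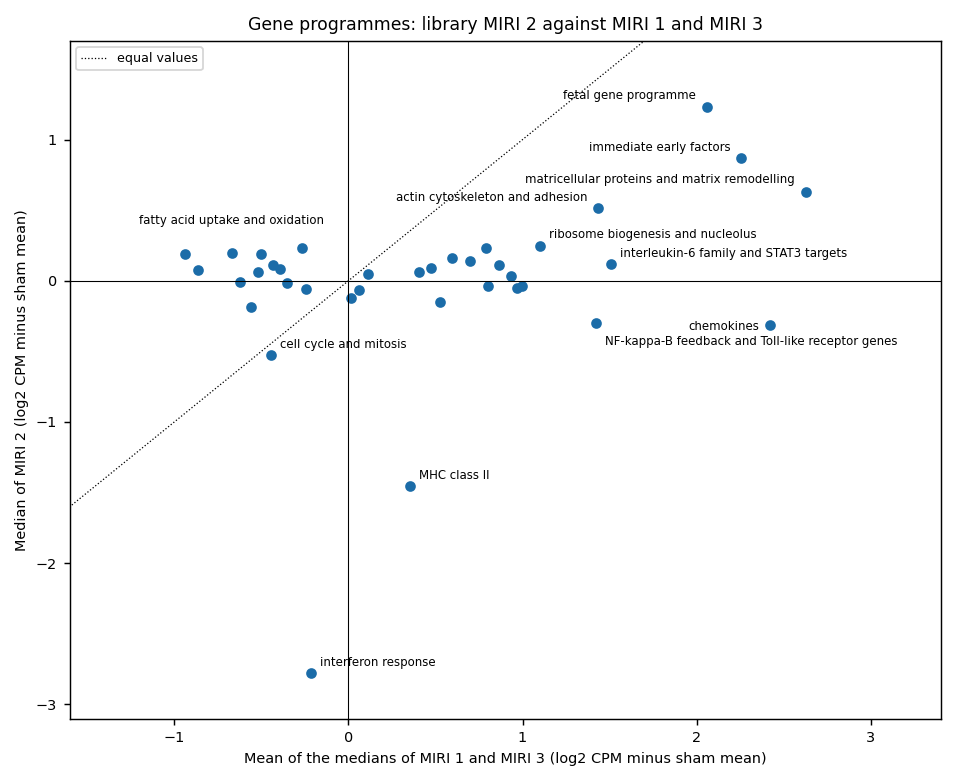
Each point is a gene programme, with the mean of the MIRI 1 and MIRI 3 medians on the horizontal axis and the MIRI 2 median on the vertical axis, both as log2 CPM minus the sham mean. On the dotted line MIRI 2 would equal the other MIRI libraries; the fetal, immediate early, matricellular and actin programmes are raised on both axes, chemokines are raised on the horizontal axis only, and interferon and MHC class II genes are low in MIRI 2.

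Many matricellular genes rose, and the main scar collagens did not pass by the deposited labels. Of 27 matricellular and remodelling genes 16 rose and 1, Thbs2, fell by the deposited labels, 21 rose and 3 fell without MIRI 2, and 22 and 3 did so in the other grouping, with medians of 2.31, 2.67 and 2.64. Tnc, tenascin-C of the provisional matrix, was at 1.34, 1.53 and 1.12 CPM in sham and at 78, 12.8 and 154 CPM in MIRI. MIRI 2 was well above sham and well below the other MIRI libraries, and the rise was 5.94 ± 0.93. Thbs1, an activator of latent TGF-beta, rose by 6.58 ± 1.20. Ccn2, connective tissue growth factor, was at 48, 40.6 and 33.4 CPM in sham and at 657, 249 and 704 CPM in MIRI, and rose by 3.73 ± 0.43. Of 17 collagens tested 6 rose and 0 fell by the deposited labels, 9 rose and 1 fell without MIRI 2, and 9 rose and 3 fell in the other grouping. The 6 by the deposited labels were Col4a1 and Col4a2 of basement membranes, Col5a3, Col6a3, Col8a1 and Col12a1. The scar collagens Col1a1 and Col3a1 stood at 158, 111 and 147 CPM against 82.3, 149 and 134, and at 432, 268 and 402 CPM against 224, 316 and 269. Their groups overlapped, with changes of -0.19 ± 0.25 and -0.44 ± 0.22, and Col3a1 fell in the other grouping only. Col1a2, which pairs with Col1a1 in type I collagen, differed from sham by -0.41 ± 0.18 and also fell in the other grouping only, by 0.80 (SE 0.24).

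Ligands of the TGF-beta family were among the genes that rose. Of 20 genes tested 6 rose, and 12 rose and 2 fell in both other settings. The activin subunit Inhba was at 0.698, 0.891 and 2.4 CPM in sham and at 32.8, 7.18 and 52.7 CPM in MIRI, without overlap, and rose by 4.55 ± 0.83. Inhbb and Tgfb2 rose by 4.67 ± 1.11 and 2.69 ± 0.36, and the activin antagonist Fstl3 by 3.27 ± 0.34. Tgfbr1 and Tgfbr2 differed from sham by 0.50 ± 0.18 and 0.07 ± 0.19, and Smad3 by 0.32 ± 0.17. Of 23 complement and coagulation genes tested 6 rose and 1 fell by the deposited labels, and of 24 tested 11 rose and 2 fell without MIRI 2 and 11 rose and 3 fell in the other grouping. Among the risers were Plaur, F10, Procr, Plat and F13a1, genes of clotting and fibrinolysis. The complement genes C1qa, C1qb and C3 differed from sham by -0.32 ± 0.14, -0.35 ± 0.15 and -0.70 ± 0.31, and C1s1 fell by 0.85 on the log2 scale (SE 0.22).

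Genes of the actin cytoskeleton rose, and most were raised in all MIRI libraries. Of 26 genes 18 rose and 0 fell, beside 24 and 0 without MIRI 2 and 23 and 0 in the other grouping, and all MIRI libraries were above all sham libraries in 23 of the 26, beside 17.4% of all genes tested. Flnc, filamin C of the Z-disc, was at 278, 233 and 322 CPM in sham and at 2092, 1015 and 3706 CPM in MIRI. MIRI 2 was the lowest of the MIRI libraries and far above the highest sham library, and the rise was 3.04 ± 0.47. The cytoplasmic actins Actb and Actg1 rose by 1.63 ± 0.45 and 1.81 ± 0.39, the integrin Itga5 by 2.48 ± 0.40 and the tubulin Tubb6 by 2.75 ± 0.57. Tagln and Cnn1, smooth muscle genes of the same list, were below 10 CPM and did not pass in any setting. Srf, the factor that drives many actin genes, was at 74.3, 81.6 and 87.5 CPM in sham and at 116, 121 and 148 CPM in MIRI and rose by 0.67 ± 0.15.

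Ribosome assembly genes rose in part. Of 25 genes of ribosome biogenesis 12 rose and 0 fell, and 22 rose and 0 fell in both other settings, with medians of 0.87, 1.10 and 1.13. Rrp12, which exports pre-ribosomes from the nucleus, was at 22, 16.8 and 22.9 CPM in sham and at 90.5, 39.5 and 112 CPM in MIRI, without overlap, and rose by 1.98 ± 0.38. Ncl and Fbl, abundant nucleolar proteins, rose by 0.76 ± 0.21 and 1.03 ± 0.28. Of 28 cytosolic ribosomal proteins Rpl3 and Rps12 rose, and the median change was 0.31. Of 24 proteasome subunits only Psmd11 rose, by 0.86 ± 0.23, and the median was 0.11. For the ribosomal proteins and the proteasome the risers were near or below the 6.15% of all genes tested that rose.

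Genes of mitosis were low in all libraries, and a few fell. Of 26 tested of 29, Mki67, Ccna2 and Aurkb fell and none rose, beside 3 that rose and 5 of 27 that fell without MIRI 2, and 3 that rose and 6 of 26 that fell in the other grouping. Mki67, the proliferation marker, was at 5.42, 3.76 and 4.85 CPM in sham and at 1.92, 0.475 and 1.2 CPM in MIRI. All MIRI libraries were below all sham libraries, MIRI 2 the lowest, and the fall was 1.93 on the log2 scale (SE 0.46). Aurkb was at 0.805, 0.792 and 0.906 CPM in sham and at 0.281, 0.0594 and 0.129 CPM in MIRI, the values of MIRI 2 and MIRI 3 being at or under 3 counts.

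Clock genes moved in both directions. Of 18 genes Arntl and Nfil3 rose and Nr1d2 and Ciart fell by the deposited labels, 3 rose and 8 fell without MIRI 2, and 3 rose and 9 fell in the other grouping. Nfil3, a repressor of the D-box, was at 8.05, 5.3 and 7.67 CPM in sham and at 41.2, 17.8 and 55 CPM in MIRI and rose by 2.45 ± 0.42. Dbp, the activator at the same sites, was at 63.8, 106 and 102 CPM in sham and at 11.3, 61.2 and 13.5 CPM in MIRI. MIRI 2 lay just under the lowest sham library, and the change of -1.67 ± 0.65 passed only in the settings without it. When MIRI 2 was left out, Dbp, Tef and Hlf fell by 2.87, 1.92 and 2.42. The hour at which each heart was taken is not given in the sources used here, and its part in these values was not tested.

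The remaining lists are given beside the shares over all genes tested. By the deposited labels 6.15% of all genes rose and 2.82% fell. Without MIRI 2 these shares were 16.9% and 13.3%, and in the other grouping 19.2% and 16.6%. Of 20 cholesterol synthesis genes tested 1 rose and 2 fell, Fdft1 by 1.12 and Insig1 by 0.84 on the log2 scale, and 6 rose and 3 fell in both other settings. Of 16 cardiac transcription factors Srf rose and Irx3 fell, and Gata4 and Nkx2-5 differed from sham by 0.37 ± 0.17 and 0.37 ± 0.22, while 1 rose and 4 fell in both other settings. Of 22 autophagy genes Ulk1 and Optn fell, by 0.71 and 0.86, and none rose, while 5 fell without MIRI 2 and 6 in the other grouping. Of 20 genes of VEGF and angiopoietin signaling none passed by the deposited labels, and 6 rose and 1 fell in both other settings. Angpt1 was at 25.8, 38.7 and 37.8 CPM in sham and at 18.6, 77.3 and 6.95 CPM in MIRI, where MIRI 2 lay above sham and the other MIRI libraries below it.

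Cell type markers were read beside the programmes. Neutrophil markers had a median of 3.63 in MIRI 1 and 3.75 in MIRI 3 and of -0.46 in MIRI 2, in log2 CPM above the sham mean. S100a8, an abundant neutrophil protein, was at 12.1, 9.21 and 11.8 CPM in sham and at 202, 8.55 and 141 CPM in MIRI. MIRI 2 was under the lowest sham library. Of 10 neutrophil markers tested 2 rose by the deposited labels and 12 of 13 tested rose without MIRI 2. In the other grouping 10 of 12 tested rose and 1, G0s2, fell by 1.02 on the log2 scale (SE 0.27). The defining surface marker Ly6g was at most 0.843 CPM in any library. Markers of recruited monocytes and macrophages rose in 5 of 10 by the deposited labels and in 10 of 10 in both other settings, with Arg1 at 8.91, 2.77 and 9.96 CPM in sham and 115, 9.08 and 338 CPM in MIRI. Resident macrophage markers did not follow: of 9 only F13a1 rose, and their medians were 0.11, -0.09 and -0.72 in MIRI 1, 2 and 3.

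**Figure D5:**
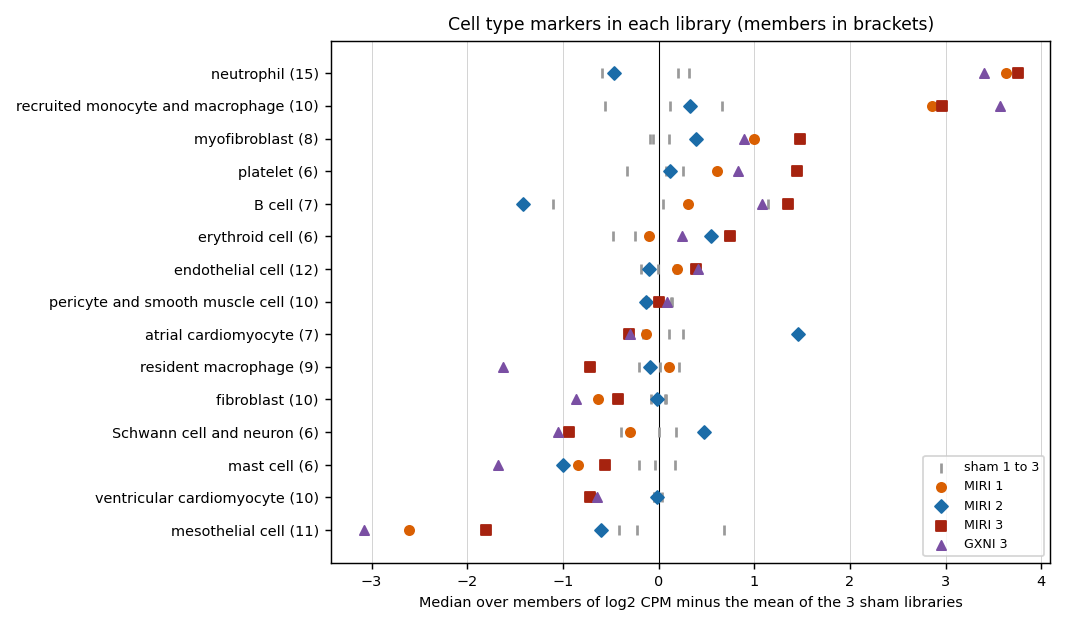
Each row is a marker list with the number of its genes in brackets, and the horizontal axis is the median over tested members of log2 CPM minus the mean of the 3 sham libraries. Neutrophil and recruited macrophage markers separate MIRI 1, MIRI 3 and GXNI 3 from sham and from MIRI 2, and the median of mesothelial markers lies low in the same libraries.

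Markers of the heart's own cells were read in the same way. Of 10 ventricular cardiomyocyte markers 1 fell by the deposited labels and 6 fell without MIRI 2, and their summed level was 44217 to 47258 CPM in sham and 30095, 47951 and 34118 CPM in MIRI 1, 2 and 3. None of 12 endothelial markers passed by the deposited labels. Without MIRI 2, 2 rose, which is near the 16.9% of all genes tested, and 4 rose in the other grouping, beside 19.2%. Fibroblast markers summed to 1994 to 2218 CPM in sham and to 1489, 2049.9 and 1128 CPM in MIRI, and of 10 genes Mfap5 rose, while Dcn, Dpt, Lum and Gsn fell without MIRI 2. Of 8 myofibroblast markers 3 rose by the deposited labels, Tnc, Postn and Acta2, with 5 without MIRI 2 and 4 in the other grouping. Acta2 did not pass in the other grouping, where its change was 0.82 ± 0.29 and GXNI 3, at 78.8 CPM, lay inside the sham range. Of 8 mesothelial markers tested, which mark the heart surface, 2 rose and 0 fell by the deposited labels, 2 rose and 5 of 10 fell without MIRI 2, and 2 rose and 4 of 7 fell in the other grouping. The keratin Krt18 was at 0.913, 0.693 and 0.533 CPM in sham and at 1.87, 3.21 and 3.43 CPM in MIRI, and rose by 1.99 ± 0.36. Upk3b was at 4.51, 1.63 and 2.61 CPM in sham and at 0, 1.72 and 0.343 CPM in MIRI, and Wt1, of the same layer and of activated epicardium, rose by 1.06 ± 0.28. Of 10 pericyte and smooth muscle markers Acta2 rose and Abcc9 fell by the deposited labels, while 2 rose and 4 fell without MIRI 2 and 1 rose and 4 fell in the other grouping. Of the few lymphocyte markers tested, Nkg7 of natural killer cells fell, with 13, 14 and 16 reads in sham and 5, 4 and 8 in MIRI. Nkg7 also fell in the other grouping but did not pass without MIRI 2. None of 6 B cell, 5 erythroid, 3 platelet and 4 Schwann cell and neuron markers passed by the deposited labels. Of 5 mast cell markers tested, the proteases Mcpt4 and Cma1 fell by 2.29 and 1.48 on the log2 scale from levels of at most 1.86 CPM. The receptor Kit and the histamine-forming enzyme Hdc differed from sham by 3.13 ± 0.98 and 2.24 ± 0.83, and both rose without MIRI 2 and in the other grouping. The atrial gene Myl7 and the fat cell gene Plin1 were highest in MIRI 2, with Myl7 at 1.78 CPM against at most 0.698 in the other 5 libraries and Plin1 at 1.66 CPM against at most 0.0936. The tissue piece taken for each library is not given in the sources used here, and the part of these genes in the other differences was not tested.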

How the data were processed

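RNA-seq was done on total RNA of mouse hearts, and the read counts per gene were made by the authors and deposited as 1 table for all libraries. Per the labels the tools were HISAT2, featureCounts of Subread and DESeq2 on mm10. Versions and the strand setting are not given in the sources used here, so overlapping and antisense genes cannot be told apart. Gene names and positions came from GENCODE M21 (GRCm38), which paired 54409 of 54532 identifiers, and promoters from RefSeq (GRCm38.p6). No column outside the 9 libraries of the series was used.

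MIRI was compared with sham in R 4.3.3 with edgeR 4.0.16 (quasi-likelihood test, TMM, filterByExpr) on the 6 libraries as labelled. Calls required an unadjusted p no higher than 0.01 and a 1.5-fold difference or more. Under the deposited labels the Benjamini-Hochberg adjusted p exceeded 0.05 for all genes but Fhl1 and Nr4a1. The SE is the log2 fold change over the root of F. CPM used TMM factors, and log2 CPM a prior count of 0.5. Per the study's methods each group held 3 independent animals. Alternatives were DESeq2 1.42.0, other scaling, filters and samples, a replicate block and leaving out each library. The other grouping was the choice of 3 from the 6 ischemic libraries with fold changes nearest to the study's supplementary ones: over 1715 genes its median absolute log2 difference was 0.001088, the next choice had 0.1266, and the deposited grouping, at place 10 of 20, had 0.4021. An exchange of the labels of MIRI 2 and GXNI 3 can be neither shown nor dismissed from the files.

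The gene lists were chosen with earlier results of these data known. The first 2 members of a list, the called member with the largest change and no overlap, and the 5 largest rises and falls were picked by rule, though not every gene so picked is described, and the other genes, Fhl1 included, were chosen after their values were seen. Some genes counted in the lists are not reported here by name.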

Additional observations from a re-analysis of the deposited data

How the results depend on the processing

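The deposited labels gave 900 risers and 413 fallers. DESeq2 gave 1491 and 760, no filter on low counts 1603 and 803, all 9 libraries in 1 fit 535 and 265, and the adjusted p threshold 2 and 0. The other grouping gave 2848 and 2462, or 3013 and 2564 with DESeq2, a combination chosen after seeing the data. Leaving out 1 library gave 340 to 2571 higher and 174 to 2021 lower genes. The highest counts came without MIRI 2 and the lowest without a sham library, and no named gene that passed changed direction under any setting. RLE scaling (898 and 411) and leaving out mitochondrial genes (877 and 428) stayed near the main counts. Of the named genes 20 gained a call in the other grouping and 17 without MIRI 2, and 26 to 29 lost theirs without 1 sham library. At the adjusted threshold 2025 genes passed in DESeq2 and 1124 with no filter, 0 in edgeR when MIRI 1, MIRI 3 or a sham library was left out, and 6554 without MIRI 2.

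The replicate numbers did not pair the libraries, since the deviations of same-numbered libraries correlated at -0.0994, 0.0507 and 0.117. Not every library correlated best with its own number. Adding these numbers as a block gave 698 risers and 367 fallers.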
